A study of Mus musculus with 8 samples.

Results

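The genes described here encode the subunits of the mitochondrial respiratory chain, read in RNA sequencing of mouse skin. They were taken by name from the deposited table: symbols of the Nduf a, b, c, s and v series, Sdha to Sdhd, Uqcr, Cox4 to Cox8 and Atp5, and the protein genes of mitochondrial DNA. The rule matched 101 of 21959 rows, which hold 100 names. Of these, 84 are nuclear genes apart from muscle isoforms, 3 are muscle isoforms of cytochrome c oxidase (Cox6a2, Cox7a1 and Cox8b) and 13 lie on mitochondrial DNA. The 84 include 1 pseudogene, which was counted but not described. Skin was treated with MC903 in 4 libraries, which the submitters titled control, and with MC903 plus phytic acid in another 4. MC903, or calcipotriol, is a vitamin D analogue used to raise a dermatitis in mouse skin, and phytic acid is inositol hexaphosphate. Both groups carry MC903 and neither is untreated, so every change below is relative to MC903 skin. The sources used here do not give strain, genotype, sex, age, skin site, dose or days of treatment. The labels do not say that each library came from its own mouse, so p-values measure the spread between these libraries, which may be technical.

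Complexes I to IV of the inner mitochondrial membrane pass electrons from NADH and succinate to oxygen, and all but complex II pump protons. Complex V, the ATP synthase, makes ATP from the proton gradient. Complex II is encoded in the nucleus alone. The core of the others is partly encoded on mitochondrial DNA, read from long transcripts, and partly in the nucleus. Accessory subunits, which build and hold the complexes, are encoded in the nucleus. Cytochrome c oxidase has some subunits in alternative forms, of which Cox6a2, Cox7a1 and Cox8b replace Cox6a1, Cox7a2 and Cox8a in heart and skeletal muscle, and Cox7a1 and Cox8b also in brown fat.

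Values are FPKM, that is, fragments scaled both to gene length and to the size of the library. Levels of different genes can be set side by side only roughly. The length that gave whole reads was that of all annotated exons of a gene, and the treatment of reads with several matches is not given. Library totals recovered from the FPKM were 31676934 to 37639476 reads with MC903 and 38310034 to 42997271 with phytic acid, so each library of the second group was the deeper. Changes are log2 fold changes of FPKM + 1, MC903 plus phytic acid minus MC903, with their standard error (SE). A gene was called when its Benjamini-Hochberg adjusted p in limma, fitted over all genes, was under 0.05. Some markers of several cell types were called. Over all genes tested, 14.2% were called higher and 11.6% lower, and the shorter marker lists rest on few genes. Of 19 tested skeletal muscle markers, 16 were called higher (84.2%), and of 7 leukocyte markers all 7. Of 9 tested adipocyte markers 3 were called higher (Adipoq, Retn and Cfd), and their list summed to 218 to 554 FPKM with MC903 and 597 to 1088 with phytic acid. Of 8 fibroblast markers 2 were called higher (Dcn and Dpt), with sums of 443 to 529 and 590 to 1145 FPKM. Of 10 keratinocyte markers 3 were called higher (Krt10, Krt15 and Lor) and 1 lower (Krt14). Their sum was 7783 to 10880 and 6323 to 7743 FPKM, and without Krt14 it was 2690 to 5478 and 4593 to 6479. The part of these cell types in the results below was not tested.

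Of the 100 names, 97 reached 1 FPKM in 4 or more libraries and were tested. The exceptions were Cox7b2 and Cox8c, listed at 0 in every library, and Ndufb11b, listed at 0 in all but 1. With phytic acid 9 members were called higher and 0 lower, which is 9.28% of those tested. Over all 12165 genes tested, 25.8% were called, 14.2% higher and 11.6% lower. Both the share called and the share called higher were thus below those of all genes, but this depended on a library and on the scaling. Without library 2 with phytic acid 25 members (25.8%) were called higher, against 10.8% of all genes. The members' share called higher was also above that of all genes with TPM (19.6% against 12.5%), quantile (24.7% against 14.6%) and nuclear sum scaling (23.7% against 15.5%) and with library weights (28.9% against 23.6%), and below it under the other 16 of 21 alternatives. The median change of the members was 0.19 against 0.05 for all genes, and 82 of 97 members lay above 0. The groups did not overlap for 16 members (16.5%), against 27.3% of all genes. The plot of changes by complex shows these small changes, with larger ones among the muscle isoforms and the genes of mitochondrial DNA.

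**Figure D1:**
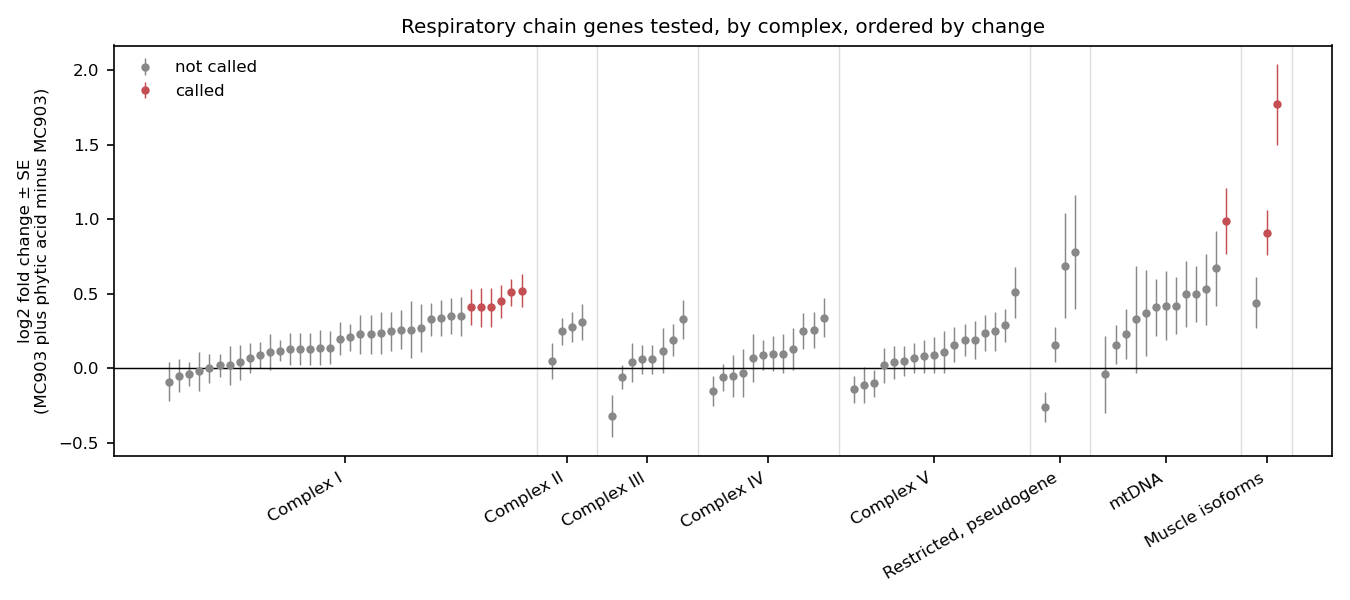
Log2 fold change of each of the 97 tested members, MC903 plus phytic acid minus MC903, with its SE (vertical axis), in order of size within each complex or group (horizontal axis). Red points passed the limma test. The 9 called members are all above 0, and Cox7a1 at 1.77 is the highest point.

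The muscle isoforms carried the largest called changes of nuclear genes among the members. Cox7a1, the heart and muscle form of subunit 7a, stood at 4.90, 12.4, 9.88 and 4.75 FPKM in MC903 libraries 1 to 4. It stood at 31.1, 22.1, 31.7 and 26.6 FPKM in the libraries with phytic acid. Every value with phytic acid was above every MC903 value. The means were 7.99 ± 3.80 and 27.9 ± 4.47 FPKM (SD, n = 4 each), a ratio of 3.49. The log2 fold change was 1.77 ± 0.27 (SE, limma adjusted p = 0.00208), and no lower than 1.59 when any 1 library was left out. The gene lies on chromosome 7 of GRCm38, at 30184144 to 30186078, on the plus strand.

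Cox8b, the muscle form of subunit 8, read 36.4, 54.95, 41.4 and 45.9 FPKM with MC903 and 81.5, 68.5, 103 and 86.3 with phytic acid. Again the groups did not overlap. It rose by 0.91 ± 0.15 on the log2 scale (limma adjusted p = 0.00344). Cox8b lies on chromosome 7 at 140898945 to 140900446, minus strand.

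Cox6a2, the muscle form of subunit 6a, read 125, 109, 89.0 and 94.6 FPKM with MC903 and 128, 117, 190 and 139 with phytic acid. MC903 library 1 lay above library 2 with phytic acid, so the groups overlapped. Its log2 fold change of 0.44 ± 0.17 missed the threshold (limma adjusted p = 0.0806), but passed under TPM scaling (0.0429), quantile normalization (0.0293) and scaling to the summed nuclear genes (0.0368). Cox6a2 lies on chromosome 7 at 128205435 to 128206387, minus strand. It shares 70 of its 680 exon bases with Itgad on the opposite strand, and the sources used here do not give the strand setting of the counting.

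The ubiquitous partners did not pass the test. Cox6a1 gave a log2 fold change of -0.15 ± 0.10 (limma adjusted p = 0.293), Cox7a2 of 0.07 ± 0.16 (0.780) and Cox8a of -0.05 ± 0.14 (0.803). The sign of Cox8a turned under quantile and nuclear sum scaling. The muscle form made up a larger part of each pair with phytic acid. Of the summed FPKM of Cox7a1 and Cox7a2, Cox7a1 took 4.60% to 9.72% with MC903 and 18% to 24.1% with phytic acid. Cox8b took 28.6% to 42.0% of its pair, then 47.4% to 59.6%. Cox6a2 took 53.8% to 61.0%, then 63.7% to 74.1%, the highest in library 3.

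The log2 ratio of muscle to ubiquitous form rose from -3.70 ± 0.56 to -1.87 ± 0.23 (SD, n = 4) for Cox7a1 to Cox7a2. For Cox8b to Cox8a it rose from -0.88 ± 0.39 to 0.10 ± 0.31, and for Cox6a2 to Cox6a1 from 0.43 ± 0.18 to 1.03 ± 0.33. In none of the 3 pairs did the groups overlap. The exact two-sided permutation p was 0.0286 for each, the smallest that 4 against 4 libraries allow, and 0.0286 after adjustment over the 3 pairs. Without library 3 with phytic acid the differences were 1.81, 0.83 and 0.43, with an adjusted exact permutation p of 0.0571 for each. The plot of the 6 genes shows Cox7a1 and Cox8b apart between the groups, while Cox6a2 and the 3 partners overlapped.

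**Figure D2:**
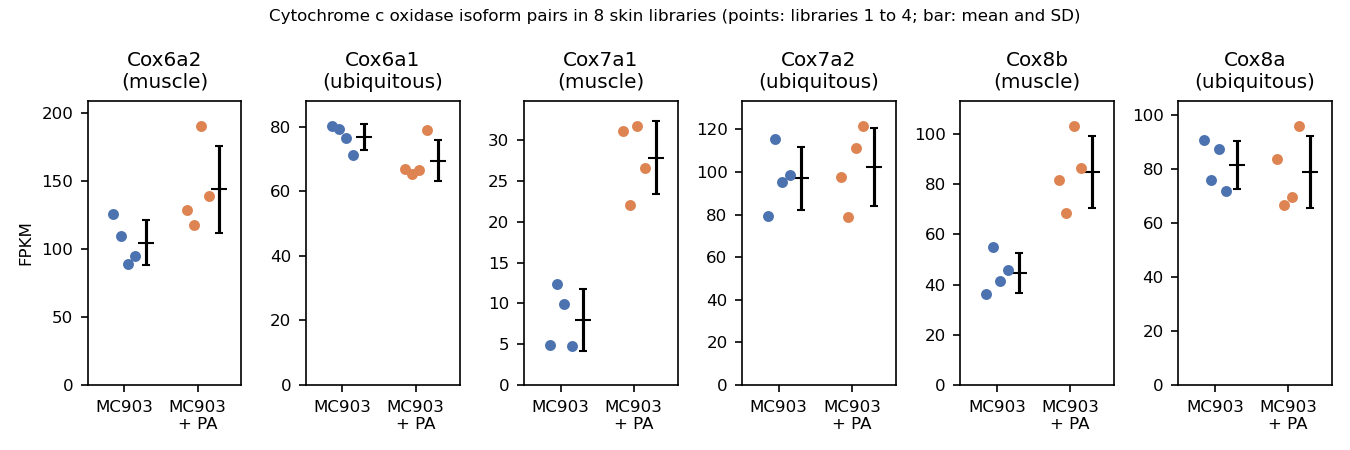
FPKM of each muscle isoform of cytochrome c oxidase and of its ubiquitous partner in the 4 libraries of each group (points), with the mean and SD of the group (bar), each panel with its own axis from 0. PA stands for phytic acid. The groups are apart for Cox7a1 and Cox8b and overlap for the other 4 genes.

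Skeletal muscle markers moved with these isoforms. Their summed level was 4750 to 5610 FPKM with MC903 and 9892 to 11440 with phytic acid, with a median log2 fold change of 1.06 over 19 tested genes. None of the 20 markers was at 0 in all libraries, while Tnnc2, at 0 in at least 1, was not tested. Mylpf, a light chain of fast muscle myosin, rose by 2.14 ± 0.24, Eno3, the muscle enolase, by 1.18 ± 0.13 and Myoz1, a Z-disc protein, by 1.06 ± 0.12 on the log2 scale (limma adjusted p of 0.000588, 0.000588 and 0.000662). In bulk skin, more muscle cells in a piece and more of these RNAs per muscle cell cannot be told apart, and the part of muscle content in the isoform changes was not tested.

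Markers of the other tissues that use these isoforms were not called higher. Of 6 brown fat markers 4 could be tested, and 1 was called lower (25%, against 11.6% of all genes). Their summed level was 168 to 199 FPKM with MC903 and 97.1 to 128 with phytic acid. Elovl3 and Cidea made up most of it, with means of 106 and 72.9 FPKM with MC903 and 43.55 and 63.5 with phytic acid. Whether these RNAs came from brown fat was not tested. Ucp1, which defines brown fat, was at 0 in 5 libraries and at most 0.0812 FPKM in the rest, and Elovl3 fell by 1.28 ± 0.18 on the log2 scale (limma adjusted p = 0.00146). Of 6 heart markers 3 could be tested, and 1 was called lower (33.3%, against 11.6% of all genes). Their sums were 7.81 to 59.8 FPKM with MC903 and 2.09 to 3.63 with phytic acid. Myh6 and Nppa did not pass 0.108 FPKM in any library. Myl7, an atrial myosin light chain, read 48.8, 37.6, 5.90 and 56.7 FPKM with MC903 and 0.416 to 0.867 with phytic acid (-4.18 ± 0.57, limma adjusted p = 0.00133).

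The order of the groups within each library differed. Summed over the 3 muscle isoforms, the level was 140 to 177 FPKM with MC903 and 241, 208, 325 and 252 with phytic acid, highest in library 3. Summed skeletal muscle markers were highest in library 1 (11440 FPKM) and stood at 10410 in library 3. Summed nuclear members were 4694 to 5068 FPKM with MC903 and 5230, 4467, 5530 and 5935 with phytic acid, so the groups overlapped through library 2. That library was the lowest of its group for 83 of the 97 members, against 2322 of 12165 genes, and for 4 of the 19 muscle markers. Without it, 16 further members were called higher, among them Sdhb, Sdhc, Uqcrh, Cox6c, Atp5c1, Atp5k and mt-Atp6.

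**Figure D3:**
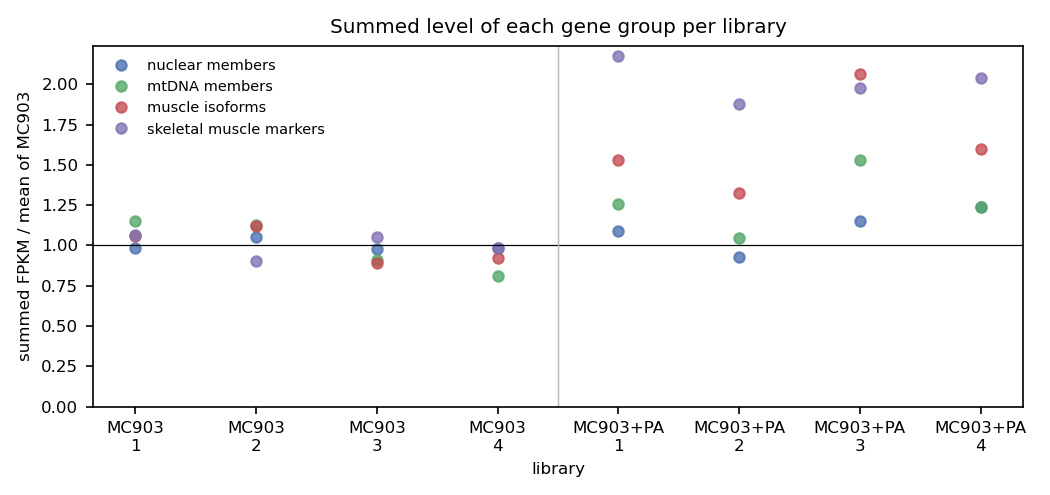
Summed FPKM of 4 gene groups in each library, divided by that group's mean over the MC903 libraries (line at 1). Skeletal muscle markers and muscle isoforms lie above the MC903 libraries in all 4 libraries with phytic acid (PA), whereas the nuclear members do not in library 2.

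The promoters of the 2 muscle isoforms that rose are shown with those of their ubiquitous partners, because these are the genes of the 2 pairs whose muscle form was called. Each is the 250 bases before the RefSeq gene start, 5′ to 3′ on the gene's strand, on GRCm38.p6. The gene coordinates given here are from GENCODE, whose starts can differ. GENCODE starts Cox7a1 at 30184144 and Cox7a2, on the minus strand, at 79759878, so the ends of these 2 windows lie inside the GENCODE gene. Capitals mark E-boxes (CANNTG, the site class of muscle bHLH factors).
Cox7a1, chr7:30183921-30184170 (plus strand): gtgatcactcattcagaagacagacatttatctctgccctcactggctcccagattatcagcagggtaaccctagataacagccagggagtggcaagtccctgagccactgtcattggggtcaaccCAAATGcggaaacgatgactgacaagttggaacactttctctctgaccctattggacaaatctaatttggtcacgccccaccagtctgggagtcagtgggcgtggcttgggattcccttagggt
Cox7a2, chr9:79759854-79760103 (minus strand): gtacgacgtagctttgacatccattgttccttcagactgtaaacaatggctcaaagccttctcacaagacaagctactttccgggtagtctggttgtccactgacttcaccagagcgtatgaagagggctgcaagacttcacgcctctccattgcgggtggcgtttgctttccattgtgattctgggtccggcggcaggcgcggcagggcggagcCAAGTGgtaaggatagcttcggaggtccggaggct
Cox8b, chr7:140900447-140900696 (minus strand): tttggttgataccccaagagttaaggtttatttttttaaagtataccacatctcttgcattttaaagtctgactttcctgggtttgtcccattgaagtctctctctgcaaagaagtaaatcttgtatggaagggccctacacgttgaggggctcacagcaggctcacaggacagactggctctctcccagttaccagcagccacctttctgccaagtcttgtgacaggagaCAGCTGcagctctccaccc
Cox8a, chr19:7217617-7217866 (minus strand): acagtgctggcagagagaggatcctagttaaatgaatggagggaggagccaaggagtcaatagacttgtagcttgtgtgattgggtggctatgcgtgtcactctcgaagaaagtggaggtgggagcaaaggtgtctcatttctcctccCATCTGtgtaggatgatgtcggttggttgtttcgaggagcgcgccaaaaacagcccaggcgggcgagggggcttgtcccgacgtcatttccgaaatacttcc
All 4 promoters hold 1 E-box and neither the core NRF1 site (CGCATGCG) nor the core ETS site (CCGGAAG), so these motifs did not separate the muscle forms from their partners.

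Of the 87 nuclear members and muscle isoforms, 69 matched the promoter table by symbol, and Cox6a2 was not among them. On either strand, the NRF1 core stood in 9.72% of 72 promoters of nuclear members against 1.55% of all 32851 promoters. The ETS core stood in 16.7% against 6.91%. E-boxes stood in 59.7% against 66.2% and TATAAA in 11.1% against 12.4%. NRF1 and the ETS factor GABP are known regulators of respiratory genes. A match here describes letters in a window and does not show a bound site.

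The 81 tested nuclear members outside the muscle isoforms include the pseudogene. Among them 6 were called higher and 0 lower (7.41% called, against 14.2% of all genes higher), with a median change of 0.13. All 6 belong to complex I, the NADH dehydrogenase, and all 6 are accessory subunits. Complex I held 36 of the 81 genes, and 16.7% of its genes were called higher, near the 14.2% of all genes. Of its 29 accessory subunits tested, 20.7% were called higher, and the median was 0.24. Of its 7 core subunits in the nucleus none was called, and the median was 0.09. Whether complexes, or accessory and core subunits, differed was not tested.

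Ndufv3, a small subunit of the NADH-binding module, read 12.4, 11.9, 13.4 and 11.9 FPKM with MC903 and 17.1, 16.5, 19.3 and 19.3 with phytic acid. Ndufa13, also known as GRIM-19, read 31.8, 34.7, 33.1 and 31.6, then 47.6, 39.3, 49.1 and 54.4 FPKM. Neither gene had overlapping groups. They rose by 0.51 ± 0.09 (limma adjusted p = 0.00381) and 0.52 ± 0.11 (0.00823), and both calls held under every alternative run and without any single library. Ndufv3 lies on chromosome 17 at 31520115 to 31531331. Ndufa13 lies on chromosome 8 at 69894180 to 69902558 and shares 375 of 1251 exon bases with Tssk6 on the other strand, which was at 0.219 to 0.665 FPKM.

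Ndufa6, a peripheral-arm subunit that binds an acyl carrier protein, read 23.1, 22.6, 20.8 and 17.9 FPKM with MC903 and 28.3, 25.9, 30.9 and 31.3 with phytic acid. It rose by 0.45 ± 0.11 (limma adjusted p = 0.0144), and its adjusted p was 0.0503 under median-of-ratios scaling. Ndufa6 lies on chromosome 15 at 82350140 to 82354322. Ndufa3 read 31.7, 42.9, 39.5 and 40.9, then 49.3, 44.2, 57.2 and 56.5 FPKM. Ndufa1 read 70.5, 81.5, 76.3 and 82.1, then 103, 82.5, 105 and 127 FPKM. Both are small subunits of the membrane part, and in both the lowest value with phytic acid, in library 2, lay just above the highest with MC903.

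Ndufa3 gave 0.41 ± 0.12 (limma adjusted p = 0.0373) and Ndufa1 0.41 ± 0.13 (0.0482). Both calls lay near the threshold and were lost without any 1 of several libraries. Over all genes the count called higher, 1722, also ran from 1072 to 2418 with 1 library left out. For Ndufa3 the adjusted p was 0.102 without MC903 library 1, 0.0627 without MC903 library 4, and 0.0641, 0.0861 and 0.0907 without libraries 1, 3 and 4 with phytic acid. For Ndufa1 it was 0.130, 0.0800, 0.0655 and 0.0789 without MC903 libraries 1 to 4, and 0.0936, 0.0889 and 0.105 without the same 3 libraries. Ndufb1, named after its values were seen because it completes the 6 calls, gave 0.41 ± 0.13 (0.0467), with overlapping groups. Its adjusted p was 0.123 and 0.121 without MC903 libraries 1 and 2, and 0.0619, 0.107 and 0.113 without libraries 1, 3 and 4 with phytic acid. Without a filter on low genes the adjusted p of Ndufa3, Ndufa1 and Ndufb1 was 0.0509, 0.0663 and 0.0676, and with median-of-ratios scaling 0.101, 0.115 and 0.0874. Ndufa3 lies on chromosome 7 at 3617373 to 3620327 and Ndufa1 on chromosome X at 37187588 to 37191163.

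Ndufb5 and Ndufa5, 2 more accessory subunits, came next, at 0.33 ± 0.11 (limma adjusted p = 0.0529) and 0.34 ± 0.12 (0.0605). At the other end of complex I, Ndufc2 gave -0.09 ± 0.13 (0.660). Among core subunits Ndufs7, an iron-sulphur protein, read at most 15.8 FPKM with MC903 and at least 16.2 with phytic acid, so the groups did not overlap, and its change of 0.12 ± 0.07 did not pass (0.249). Ndufs1, the largest subunit, gave 0.21 ± 0.09 (0.123) and Ndufv1, which binds NADH, 0.02 ± 0.08 (0.876).

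None of the 4 subunits of complex II, succinate dehydrogenase, was called. Sdhc, a membrane anchor, read 26.5, 28.6, 28.7 and 29.1 FPKM with MC903 and 37.9, 29.3, 32.6 and 38.7 with phytic acid. The groups stood apart by little and the change was 0.28 ± 0.10 (limma adjusted p = 0.0792). Sdha, the flavoprotein that oxidises succinate, read 55.1, 54.3, 60.6 and 51.7, then 69.6, 59.0, 64.9 and 70.4 FPKM, a change of 0.25 ± 0.09 (0.0848). Sdhd, the other anchor and the complex's highest gene, stood at 63.4 ± 3.06 and 66.0 ± 9.80 FPKM (SD, n = 4), a change of 0.05 ± 0.12 (0.805).

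None of the 8 tested nuclear subunits of complex III, the cytochrome bc1 complex, was called, with a median of 0.06. Uqcrh, the hinge protein next to cytochrome c1, had the highest level of the 8 at 140 ± 12.9 and 177 ± 24.1 FPKM, and changed by 0.33 ± 0.13 (limma adjusted p = 0.0789). Uqcrq, a small subunit, went the other way: it read 53.2, 60.5, 42.1 and 57.9 FPKM with MC903 and 42.2, 35.3, 44.5 and 47.6 with phytic acid. MC903 library 3 lay among the phytic acid values, and the change of -0.32 ± 0.14 (0.111) passed without it (-0.43, 0.0227). The core proteins Uqcrc1 and Uqcrc2 gave -0.06 ± 0.08 (0.594) and 0.06 ± 0.10 (0.697).

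Complex IV, cytochrome c oxidase, had 12 tested nuclear subunits besides the muscle isoforms, and none was called (median 0.10). Its highest gene, Cox6b1, stood at 222 ± 23.2 FPKM with MC903 and 245 ± 36.6 with phytic acid (0.13 ± 0.14, limma adjusted p = 0.512). Cox6c changed by 0.34 ± 0.13 (0.0799). Cox7a2l, which joins complexes III and IV into supercomplexes, read 119, 111, 119 and 87.9, then 121, 125, 130 and 147 FPKM, without overlap (0.26 ± 0.12, 0.150). Cox4i1, an early-assembling subunit, gave 0.10 ± 0.12 (0.596).

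None of the 17 ATP synthase subunits tested was called, with a median of 0.09. Atp5k, subunit e of the membrane part, read 22.4, 33.4, 32.8 and 35.7 FPKM with MC903 and 42.6, 34.9, 47.4 and 53.2 with phytic acid. Its change of 0.51 ± 0.17 was as large as that of Ndufv3 but with a wider error (limma adjusted p = 0.0523). Atp5c1, the rotating gamma subunit, changed by 0.29 ± 0.11 (0.0802). Of the subunits of the catalytic ring, Atp5a1 stood at 220 ± 5.28 and 229 ± 15.6 FPKM (0.05 ± 0.10, 0.725). Atp5b stood at 230 ± 2.70 and 214 ± 11.7 FPKM, lower in all 4 libraries with phytic acid (-0.10 ± 0.09, 0.458).

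Of 5 isoforms known from few tissues, 3 could be tested and none passed. Ndufa4l2, a hypoxia-induced relative of the oxidase subunit Ndufa4, read 30.1, 47.4, 51.0 and 20.4 FPKM with MC903 and 115, 53.1, 33.2 and 67.2 with phytic acid. The groups overlapped widely (0.78 ± 0.38, limma adjusted p = 0.162). Cox4i2, the lung form of subunit 4, was at 1.28 to 1.70 FPKM with MC903 and 0.945 to 1.23 with phytic acid, without overlap (-0.26 ± 0.10, 0.0852). Cox6b2, the testis form of subunit 6b, was at 0.143 to 3.21 and 1.72 to 4.23 FPKM (0.69 ± 0.35, 0.180).

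Genes of mitochondrial DNA took 2.56% to 3.66% of the recovered reads with MC903 and 3.40% to 4.90% with phytic acid, and these ranges overlapped. These shares hold only reads recovered from the FPKM of these genes. Of the 13 genes, 1 was called higher and 0 lower (7.69%, against 14.2% of all genes higher), 12 lay above 0 and the median was 0.42. The groups did not overlap for mt-Co3, mt-Nd4, mt-Nd5 and mt-Cytb, 30.8% of the 13, against 27.3% of all genes.

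mt-Co3, subunit 3 of cytochrome c oxidase, read 44.4, 42.4, 58.9 and 53.0 FPKM with MC903 and 82.3, 75.7, 96.6 and 157 with phytic acid. Its level with phytic acid was highest in library 4. The log2 fold change was 0.99 ± 0.22 (limma adjusted p = 0.0106), and 0.77 to 1.11 when any 1 library was left out. The gene lies at 8607 to 9390 of the mitochondrial genome, on the plus strand.

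None of the 7 subunits of complex I on mitochondrial DNA passed. mt-Nd4 read 1535, 1451, 1390 and 1057 FPKM with MC903 and 2026, 1591, 2246 and 1804 with phytic acid (0.50 ± 0.19, limma adjusted p = 0.0827). mt-Nd5 read 1112 to 1582 and 1603 to 2288 FPKM (0.42 ± 0.19, 0.137). mt-Nd2 read 1519 to 2252 and 2112 to 3363 FPKM (0.50 ± 0.22, 0.122). In all 3 genes the lowest MC903 library was the fourth and the highest with phytic acid was the third.

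mt-Nd1 was the exception, at 6457, 6082, 4022 and 4685 FPKM with MC903 and 4639, 4211, 6329 and 5294 with phytic acid. Its change of -0.04 ± 0.26 (limma adjusted p = 0.917) turned to 0.02 under scaling to the summed nuclear genes. mt-Nd6, the only one of the 13 on the minus strand, read 614 to 875 and 833 to 1366 FPKM (0.41 ± 0.19, 0.148). mt-Nd3 and mt-Nd4l were far lower, at 19.4 to 29.5 and 8.01 to 30.2 FPKM over all 8 libraries, and gave 0.16 ± 0.13 (0.390) and 0.33 ± 0.36 (0.538).

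mt-Cytb, the cytochrome b of complex III, read 4739, 4243, 4262 and 3402 FPKM with MC903 and 6083, 4792, 7308 and 5937 with phytic acid (0.53 ± 0.24, limma adjusted p = 0.129). The call for mt-Cytb depended on the procedure: it passed with voom on the recovered reads (0.0345), without the mean-variance trend (0.0284) and when only genes with a mean of 5 FPKM or more were fitted (0.0338). mt-Nd4 passed under the same 3 settings (0.0402, 0.0360 and 0.0429). Both also passed with quantile normalization (0.0413 and 0.0123) and with nuclear sum scaling (0.0482 and 0.0359). mt-Co1, the catalytic subunit of cytochrome c oxidase, had the highest level of all members at 9785 ± 1857 and 12590 ± 1722 FPKM (0.37 ± 0.29, 0.371), and mt-Co2, which takes electrons from cytochrome c, read 62.8 to 95.9 and 73.0 to 108 FPKM (0.23 ± 0.17, 0.342).

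The membrane subunits of ATP synthase on mitochondrial DNA did not pass. mt-Atp6 read 54.6, 43.3, 39.3 and 36.8 FPKM with MC903 and 96.9, 43.8, 95.4 and 56.1 with phytic acid (0.67 ± 0.25, limma adjusted p = 0.0798). It passed without library 2 with phytic acid (0.0251). mt-Atp8 was the lowest of the 13 at 1.56 to 4.67 FPKM (0.42 ± 0.23, 0.204), and 43 of its 204 bases are shared with mt-Atp6. The plot of the 13 genes on a log scale shows levels from 1.56 FPKM in mt-Atp8 to 14800 in mt-Co1.

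**Figure D4:**
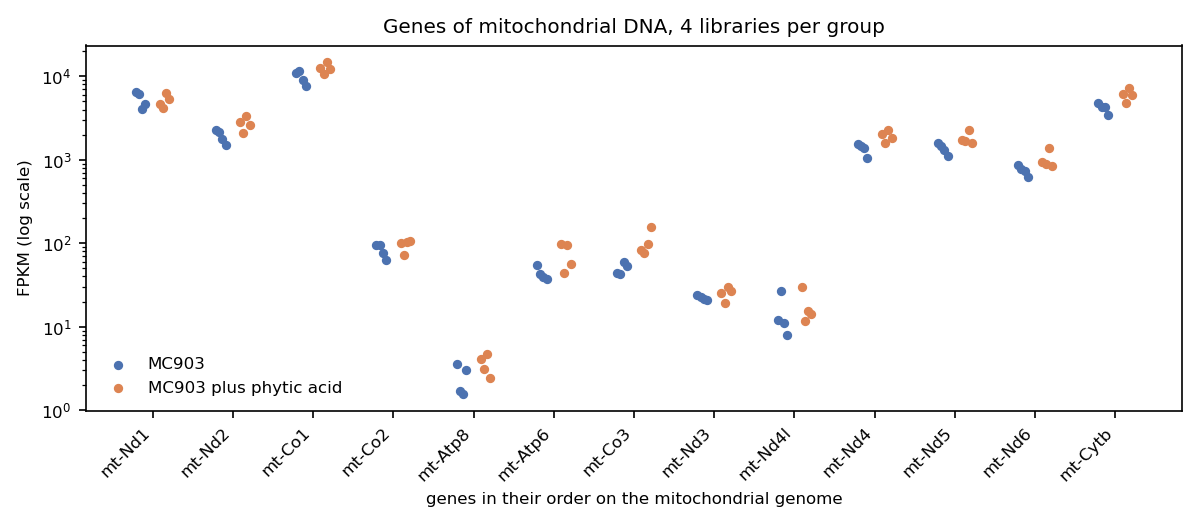
FPKM on a log axis of the 13 protein genes of mitochondrial DNA, in their order on the mitochondrial genome, in the 4 MC903 libraries (blue) and the 4 with phytic acid (orange). The 6 genes from mt-Co2 to mt-Nd4l read 1.56 to 157 FPKM and the other 7 read 614 to 14800.

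These levels ran with copies elsewhere in the genome. Of the 50-base windows of a gene, 100% for mt-Co2, 99.9% for mt-Co3, 99.5% for mt-Atp6, 98.8% for mt-Nd4l and 98.0% for mt-Nd3 also occurred in another annotated transcript. For mt-Co2 that copy is the pseudogene Gm28661 (chr1:24614885-24615565, minus strand, GRCm38), whose 681 aligned bases had 0 mismatches. For mt-Co3 it is Gm28437 (chr1:24613189-24613971), and none of these pseudogenes is a row of the deposited table. Windows were shared for 62.2% of mt-Nd4, 51.1% of mt-Co1, 8.19% of mt-Nd2 and 7.61% of mt-Nd5. They were shared for 0% of mt-Nd1, mt-Nd6, mt-Cytb and mt-Atp8, the last of which was low too. Only annotated transcripts were searched, so a copy of mt-Atp8 or of the other genes outside the annotation would have been missed. The sources used here do not say how reads that match several places were treated, and its part in these levels was not tested. The levels and changes of the genes with shared windows, mt-Co3 among them, are uncertain for this reason. So is the share of reads from mitochondrial DNA given above.

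Of 43 tested assembly factors, 2 were called higher (4.65%) and 3 lower (6.98%), against 14.2% and 11.6% of all genes, with a median of 0.02. Surf1, needed to assemble cytochrome c oxidase, rose by 0.33 ± 0.09 (limma adjusted p = 0.0245) and Uqcc3, a complex III assembly factor, by 0.33 ± 0.11 (0.0495). Cox10, which makes the heme A precursor, changed by -0.46 ± 0.12 (0.0238), Acad9, of complex I assembly, by -0.41 ± 0.11 (0.0238), and Ndufaf4 by -0.45 ± 0.14 (0.0391). All 5 calls were lost without MC903 library 1, with an adjusted p of 0.0572, 0.0875, 0.0580, 0.0583 and 0.108 in that order. Each was also lost without at least 2 other libraries. Without MC903 library 1 the calls over all genes fell too, from 1722 to 1072 higher and from 1412 to 941 lower. At the extremes, Surf1 reached 0.0741 and Uqcc3 0.130 without MC903 library 4, and Cox10 0.0636 without the same library. Acad9 reached 0.0602 without MC903 library 2.

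Of 8 tested genes for ADP, ATP and phosphate transport and mitochondrial creatine kinase, 2 were called higher (25.0%, against 14.2% of all genes) and 0 lower (against 11.6%). Ckmt2, the mitochondrial creatine kinase of heart and skeletal muscle, read 7.24, 16.2, 12.3 and 8.53 FPKM with MC903 and 52.4, 26.7, 33.8 and 38.1 with phytic acid. The rise of 1.70 ± 0.25 (limma adjusted p = 0.00188) was close in size to that of Cox7a1. Slc25a4, the ADP/ATP carrier of heart and muscle, read 115, 141, 113 and 111, then 172, 144, 222 and 177 FPKM (0.56 ± 0.15, 0.0207). Its call was lost without MC903 library 1 (0.0602) or 4 (0.0585) and under median-of-ratios scaling (0.0706). Ckmt1, the ubiquitous creatine kinase, gave 0.12 ± 0.15 (0.606). The skeletal muscle markers given above moved with Ckmt2 and Slc25a4 too.

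Of 18 citric acid cycle genes, 1 was called, higher (5.56%, against 14.2% of all genes). Sucla2, a subunit of succinyl-CoA ligase, read 29.9, 32.5, 30.1 and 27.7 FPKM, then 39.3, 34.5, 44.4 and 44.7 (0.42 ± 0.11, limma adjusted p = 0.0177), and its adjusted p was 0.0507 and 0.0537 without MC903 library 1 or 4 and 0.0670 under median-of-ratios scaling. Of 19 tested genes for mitochondrial biogenesis and expression of mitochondrial DNA, Pprc1, a coactivator related to PGC-1, was called lower (-0.54 ± 0.12, 0.0117), the single call among them (5.26%, against 11.6% of all genes called lower), and the median was 0.01. Of 8 other chain proteins none was called. Among them Higd2a, a supercomplex factor, gave 0.23 ± 0.10 (0.117) and Cyc1, cytochrome c1, -0.18 ± 0.09 (0.162).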

How the data were processed

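Total RNA of 8 mouse skin libraries was sequenced after library preparation with a SMARTER mRNA-seq kit, per the labels' protocols. The authors deposited 1 table of FPKM values for all libraries. Named in the submitters' processing notes are DESeq, TopHat2, HISAT2, cutadapt and mm10, with no versions or roles. Not given in the sources used here are the tool that made the FPKM, its annotation, its strand setting and its treatment of reads with several matches.

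Rows with no gene name (51, holding 0.016% to 0.0238% of the FPKM of a library) were dropped, and of 21 names on more than 1 row, Atp5o among them, the row of highest mean was kept, leaving 21885 genes. GENCODE coordinates of GRCm38 were joined by symbol (21123 single records). FPKM times exon length gave whole reads within 0.05 for 17509 of 17980 genes (97.4%), from which library totals came.

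Genes that reached 1 FPKM in 4 or more libraries were fitted as log2(FPKM + 1), which understates changes of low genes, with limma 3.58.1 in R 4.3.3 (eBayes with a mean-variance trend, group as the single factor, two-sided). The procedure was run on simulated data with the same assumed spread for every gene and no outlying library. The simulation therefore does not bear on calls that hinge on a single library. Isoform ratios were log2 with 0.1 added, compared by exact permutation over libraries. Alternatives were pseudocounts of 0.1 and 0.01, other filters, TPM, median-of-ratios, quantile and nuclear sum scaling, weights per library, robust eBayes, eBayes without the trend, a block for the replicate number and each library left out in turn. Voom on recovered reads was added after seeing the data. It called 1667 genes higher and 1389 lower.

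The members and gene lists were chosen with earlier results of these data known. Named were the muscle isoforms, genes of mitochondrial DNA and isoforms of restricted tissue. Per complex and direction up to 4 called members of smallest p and the member of highest mean were named, or, with none called, the 2 of smallest p. Per pathway list up to 3 called genes per direction or the 2 of smallest p were named, and 3 muscle markers. Other genes are named to show the ends of a range or a partner.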

Additional observations from a re-analysis of the deposited data

Results flagged for a closer look

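In each of 112 groups of 4 values (the named genes and isoform ratios in each treatment) the highest and lowest library was compared with its neighbours by Dixon's 95% criterion for a gap relative to the range. It marked 4 libraries, and chance alone marks about 1 in 20 groups. The ratio of Cox6a2 to Cox6a1 was 2.86 in library 3 with phytic acid against 1.76 to 1.92 in the other libraries of that group. Slc25a4, the muscle ADP/ATP carrier, read 141 FPKM in MC903 library 2 against 111 to 115 in the others. Myoz1, a skeletal muscle marker, was low in the same library, at 47.3 FPKM against 62.2 to 63.0. Higd2a read 45.3 FPKM in library 2 with phytic acid against 54.5 to 55.8.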

How the results depend on the processing

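The calls of Cox7a1, Cox8b, Ndufv3, Ndufa13 and mt-Co3 held under every alternative fit and without any single library. The count of nuclear members called higher, 6, was 3 without a filter, 14 with TPM, 2 with median-of-ratios, 16 with quantile, 17 with nuclear sum scaling and 25 with library weights, which gave MC903 library 1 a weight of 4.20. It ran from 3 to 21 when 1 library was left out. It was 3 without MC903 library 1 or library 1, 3 or 4 with phytic acid, and 21 without library 2 with phytic acid. Over all genes the count called higher ran from 1072 to 2418. The count of nuclear members called lower, 0, was 1 with quantile normalization and 1 with library weights. It was 0 to 1 with a library left out (1 without MC903 library 3). For the 13 genes of mitochondrial DNA the count called higher, 1, was 3 with a mean FPKM of at least 5, with nuclear sum scaling, without the trend and with voom, 2 with TPM, 5 with quantile normalization, and 1 to 2 with a library left out. Of the 173 tested genes of the pathway lists, ribosome included, the 6 called higher became 10 with nuclear sum scaling and 22 with library weights, and ran from 1 (without MC903 library 1) to 9 with a library left out. The 10 called lower became 6 with a mean FPKM of at least 5, 4 with TPM, 3 with nuclear sum scaling and 18 with library weights, and ran from 2 (without MC903 library 1) to 11. The cause of these moves was not tested. With library weights 2865 genes in all were called higher.

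Same-numbered libraries did not deviate together (correlations of -0.283, -0.105, -0.286 and 0.225), so the numbers were not taken as pairs. With the replicate number as a block the count of nuclear members called higher was 3, and of pathway genes 2 higher and 2 lower. Ndufa6 then gave an adjusted p of 0.0569, Pprc1 0.0562 and Mrps18b 0.0548. Under the block the differences of the isoform ratios stayed 0.59 for Cox6a2, 1.83 for Cox7a1 and 0.98 for Cox8b, with an exact p of 0.125, the smallest that 4 pairs allow. With a library left out they ran from 0.43 to 0.66, 1.62 to 2.0 and 0.83 to 1.12.

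Changes near 0 turned sign. mt-Nd1 gave 0.02 with nuclear sum scaling and -0.17 to 0.06 with a library left out (0.06 and 0.03 without MC903 libraries 1 and 2, 0.04 without library 2 with phytic acid). Sdhd gave -0.01 with median-of-ratios scaling and -0.02 without library 4 with phytic acid, over a range of -0.02 to 0.15, and Atp5a1 gave -0.00 with median-of-ratios scaling. With 4 libraries per group, standard errors of the nuclear genes of complex I were 0.07 to 0.19, so changes of the size seen in most nuclear members were not resolved.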

Other observations

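The mitochondrial ribosome, which translates the genes of mitochondrial DNA, was described apart from the chain. Its genes were taken by symbol alone, those starting with Mrpl or Mrps and a digit. Such a symbol does not show that a product is part of the ribosome. Of 77 tested genes with these symbols 1 was called higher and 6 lower, against 14.2% and 11.6% of all genes. Their median log2 fold change was -0.07. Mrps18b, of the small subunit, read 9.25, 7.86, 7.64 and 8.78 FPKM with MC903 and 4.56, 5.07, 7.21 and 5.02 with phytic acid. It fell by 0.55 ± 0.13 on the log2 scale (limma adjusted p = 0.0150), and the call held without any single library (highest 0.0498). Mrpl36 fell by 0.52 ± 0.13 (0.0200) and Mrpl19 by 0.41 ± 0.11 (0.0201), with 0.0505 and 0.0637 without MC903 library 1. The single gene called higher was Mrps36 (0.49 ± 0.14, 0.0290), with 0.0762 without MC903 library 1. It is listed by its symbol and is not taken here as a ribosomal gene. The change of the genes with these symbols was not tested against that of the chain subunits.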
